A study of Mus musculus with 2 samples.

Results

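The genes described here encode the receptors of the Notch pathway, the ligands that activate them and the fringe enzymes that tune the receptors. They are 10 genes, Notch1, Notch2, Notch3, Notch4, Jag1, Jag2, Dll1, Dll4, Lfng and Mfng, of 22270 genes measured. They were taken by the RefSeq gene name of the transcript that the authors' annotation gives each probe set. All 10 were found, each with 1 probe set, and all 10 passed the floor on dim genes, an RMA level of 7.56 on the brighter array that 11580 genes reached. RMA is the log2 scale on which the authors deposited the array values.

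Gene expression was measured on 1 array of pooled arteriole RNA for each genotype, from vessels leading to the glomeruli of the mouse kidney, which were filled with iron oxide and pulled out with a magnet after collagenase. The RBP-J cKO pool held 4 males with cre at a Ren1d allele (Ren1d+/cre), floxed RBP-J alleles (flox/flox) and the R26R ECFP allele. The wild type pool held 2 males and 1 female that carried the same floxed RBP-J and R26R ECFP alleles and lacked cre (Ren1d+/+). All animals were 3 months old, on a mixed 129Sv and C57Bl6 background. Cre is driven from the Ren1d locus, so recombination is limited to cells that have made renin and their descendants. A pool on 1 array leaves the spread between animals unmeasured, so no difference below has a replicate error, an SD or a p-value, and sex and genotype cannot be told apart.

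Notch receptors are single-pass membrane proteins that are activated by ligands on a neighbouring cell. Binding leads to cleavage of the receptor, and the freed intracellular part enters the nucleus and joins RBP-J, the DNA-binding protein of the pathway, to switch on target genes such as those of the Hes and Hey families. In blood vessels Notch1, Notch4 and Dll4 are known from endothelium, where they take part in sprouting and arterial identity, and Notch3 is known from smooth muscle cells and pericytes. Fringe proteins add a sugar to the fucose on the receptor's outer part and thereby change how well Delta-like and Jagged ligands activate it.

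Promoters are printed here for 3 genes, because Lfng is the gene of the set whose window holds the RBP-J motif and because Notch4 and Notch2 had the lowest and the highest difference. They are RefSeq sequences of GRCm38.p6 from 250 bases before to 50 bases from each gene's start on, printed along the gene's strand. Capitals mark the RBP-J core TGGGAA, on either strand, and its longer form CGTGGGAA, and the AP-1 motif TGACTCA. The AP-1 motif was added after the sequences had been read.
Lfng, chr5:140607091-140607390, + strand: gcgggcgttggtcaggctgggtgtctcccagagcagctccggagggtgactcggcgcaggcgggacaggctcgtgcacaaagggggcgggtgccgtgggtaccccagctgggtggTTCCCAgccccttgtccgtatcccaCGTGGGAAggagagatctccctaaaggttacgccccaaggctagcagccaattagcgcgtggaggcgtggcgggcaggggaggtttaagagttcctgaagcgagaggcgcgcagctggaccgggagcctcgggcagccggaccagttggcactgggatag
Notch4, chr17:34564045-34564344, + strand: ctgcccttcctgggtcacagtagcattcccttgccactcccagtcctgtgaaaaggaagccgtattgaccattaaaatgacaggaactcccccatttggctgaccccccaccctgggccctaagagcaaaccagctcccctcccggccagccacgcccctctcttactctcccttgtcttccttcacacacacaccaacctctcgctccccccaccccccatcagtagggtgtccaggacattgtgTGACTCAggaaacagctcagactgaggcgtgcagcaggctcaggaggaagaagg
Notch2, chr3:98013288-98013587, + strand: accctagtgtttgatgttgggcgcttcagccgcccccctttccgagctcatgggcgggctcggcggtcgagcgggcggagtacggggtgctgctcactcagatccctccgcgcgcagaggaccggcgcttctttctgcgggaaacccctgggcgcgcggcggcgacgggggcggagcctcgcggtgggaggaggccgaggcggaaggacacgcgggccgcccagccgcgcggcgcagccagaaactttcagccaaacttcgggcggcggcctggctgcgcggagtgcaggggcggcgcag

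The authors' log2 values for the receptors were lower in the cKO pool for Notch4, Notch1 and Notch3 and higher for Notch2. Notch4, a receptor best known from endothelium, read 9.25 on the cKO array and 9.81 on the wild type array (probe set 10444352). This is a difference, cKO minus wild type, of -0.56 on the log2 scale, or 1.47-fold lower. Notch1, the receptor of endothelium and many other tissues, read 10.13 on the cKO array and 10.62 on the wild type array (probe set 10481056), a difference of -0.49. Notch3, the receptor of the vessel's muscular wall, read 9.17 on the cKO array and 9.57 on the wild type array (probe set 10449775), a difference of -0.40. The 3 receptors were thus lower by similar amounts, within 0.16 of one another on the log2 scale. Notch2, a receptor expressed in many cell types, including those that form the nephron, read 9.76 on the cKO array and 9.55 on the wild type array (probe set 10494595), a difference of 0.21. The difference of Notch4 was 0.77 below that of Notch2 on the log2 scale, the widest gap within the set.

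The ligands had the same division, with Jag2, Dll4 and Dll1 lower in the cKO pool and Jag1 higher. Jag2, a Jagged-class ligand, read 8.44 on the cKO array and 8.87 on the wild type array (probe set 10402808), a difference of -0.43. Dll4, the Delta-like ligand of arterial and sprouting endothelium, read 9.75 on the cKO array and 10.14 on the wild type array (probe set 10474958), a difference of -0.40. Dll1, a second Delta-like ligand, read 7.71 on the cKO array and 7.97 on the wild type array (probe set 10448034), a difference of -0.25, which was the smallest among the 8 genes that were lower. Its brighter array lay nearest to the floor among the 10 genes. Jag1, the Jagged-class ligand that vascular smooth muscle and endothelium both make, read 9.81 on the cKO array and 9.70 on the wild type array (probe set 10488060), a difference of 0.11. The closely related ligands Jag2 and Jag1 were therefore 0.54 apart in their differences.

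Both fringe genes of the set were lower in the cKO pool. Lfng, encoding lunatic fringe, read 8.96 on the cKO array and 9.39 on the wild type array (probe set 10527012), a difference of -0.44. Mfng, encoding manic fringe, read 8.52 on the cKO array and 8.92 on the wild type array (probe set 10430389), a difference of -0.39. Rfng, which encodes radical fringe and is no member of the set, read 8.17 on the cKO array and 8.10 on the wild type array, a difference of 0.07.

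**Figure D1:**
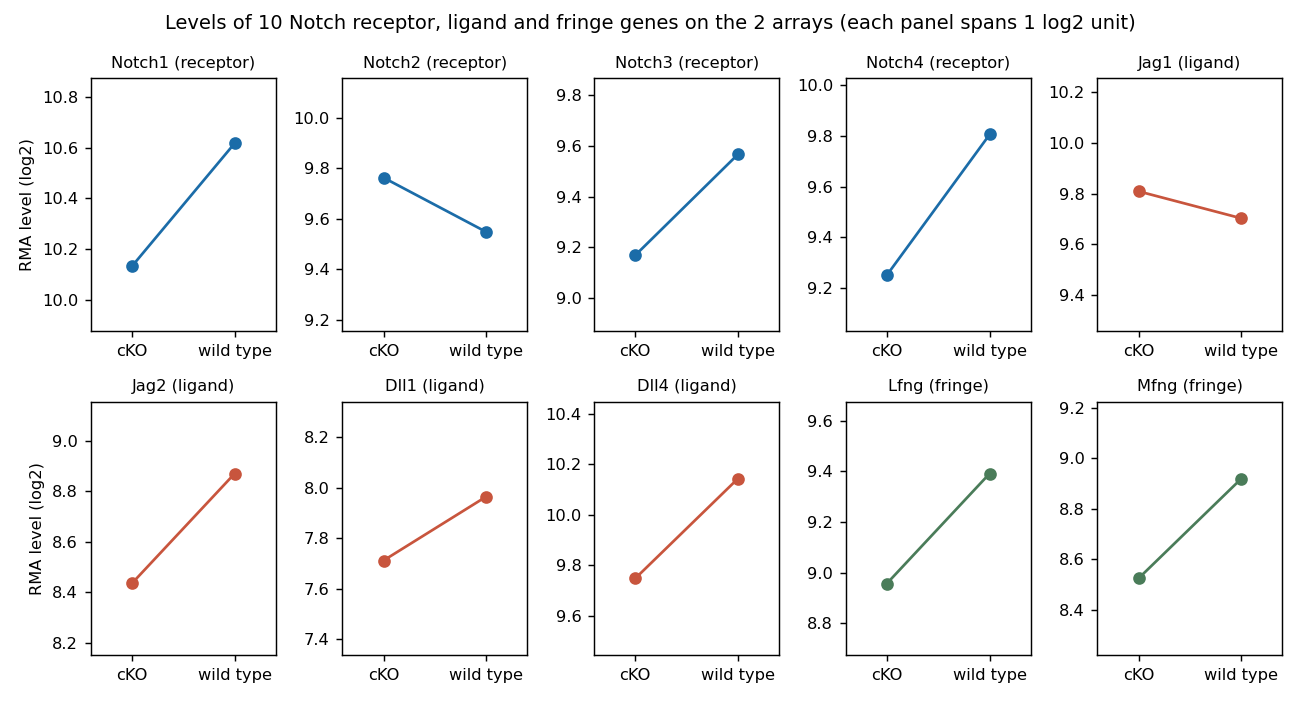
RMA level on the log2 scale of each of the 10 genes, with the RBP-J cKO array on the left and the wild type array on the right of each panel. Every panel spans 1 log2 unit, so slopes can be compared between panels while levels of different probe sets cannot. Lines run upward from cKO to wild type in 8 panels and downward for Notch2 and Jag1.

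Of the 10 genes 8 were lower and 2 were higher, beside 46% and 53.9% of all genes above the floor. The median of the 10 differences was -0.40, and that of all genes above the floor was 0.02. Of the 10 genes 7 were at least 20% lower, all but Dll1 of those below 0, beside 7.57% of all genes above the floor. At the mirror threshold of 25% higher there were 0 of the 10, beside 14.1% of all genes. At 1.5-fold lower there were 0 of the 10, beside 1.61% of all genes, and at 2-fold lower 0, beside 0.199%. Since these genes were picked with results of the same arrays known, the counts describe the set and are not a test of it.

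Placed among all 11580 genes, Notch4 had 221 genes with a lower difference, which is 1.91% of them, and Notch1 had 347. Lfng had 460 genes below it, Jag2 462, Notch3 579, Dll4 592 and Mfng 596, so these 5 genes lay close together at 3.97% to 5.15% of the ranking. Dll1 lay further in, with 11.6% of genes below it. At the other end 23.2% of all genes had a higher difference than Notch2 and 36.2% a higher one than Jag1. The lower genes of the set thus stood towards the edge of the distribution, whose SD across genes was 0.31 on the log2 scale, and Notch2 and Jag1 stood within its bulk.

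**Figure D2:**
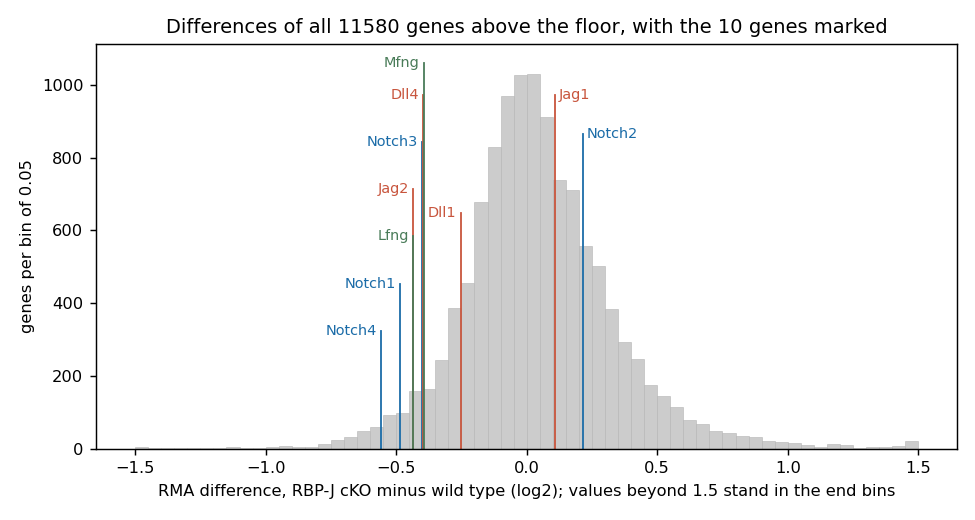
Number of genes above the floor in bins of 0.05 of the RMA difference, cKO minus wild type in log2 units, with the 10 genes as labelled lines. From Notch4 at -0.56 to Mfng at -0.39, 7 lines stand in the left flank, Dll1 at -0.25 lies nearer the centre, and Jag1 at 0.11 and Notch2 at 0.21 lie right of it.

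The second deposited processing of the same arrays, linear intensities from dChip, gave each of the 10 genes the same direction. In the authors' deposited table Notch4 had intensities of 1004 in cKO and 1445 in wild type and a signed fold of -1.44, the minus sign meaning lower in cKO, with bounds of -1.4 and -1.48. Notch1 had intensities of 1182 in cKO and 1674 in wild type and -1.42 as the signed fold in the authors' deposited table, with bounds of -1.37 and -1.46. Both receptors thus differed by about as much as with RMA. Notch3 had -1.33 as the signed fold in the authors' deposited table, from 725 in cKO and 968 in wild type. Notch2 had one of 1.11 in the authors' deposited table, from 1326 in cKO and 1194 in wild type.

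Among the ligands, Jag2 had intensities of 478 in cKO and 678 in wild type and -1.42 as the signed fold in the authors' deposited table. Dll4 had 1771 in cKO and 2154 in wild type and -1.22 as the signed fold in the authors' deposited table. On the log2 scale that is -0.28, smaller than the -0.40 of RMA, so Dll4 was no longer at least 20% lower. Dll1 had 346 in cKO and 402 in wild type, with a signed fold of -1.16, and Jag1 had 1213 in cKO and 1089 in wild type, with one of 1.11, both in the authors' deposited table.

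The fringe genes parted from each other under dChip. Mfng had intensities of 334 in cKO and 504 in wild type and -1.51 as the signed fold in the authors' deposited table, with bounds of -1.43 and -1.6. Its log2 difference of -0.59 was the lowest of the 10 genes there, against a middling -0.39 with RMA, and this gap of 0.20 between the processings was the largest in the set. Lfng had 644 in cKO and 852 in wild type and -1.32 as the signed fold in the authors' deposited table. The order of the lower genes therefore depends on the processing, while their direction was the same under both.

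With dChip 6 of the 10 genes were at least 20% lower, beside 7.34% of all genes, and 1, Mfng, at least 1.5-fold lower, beside 1.46%. The authors' bounds lay below equality for the 8 lower genes, beside 37.3% of all genes, and above it for the 2 higher ones, beside 45.9%. Bounds on 1 side of equality are thus common in that table, and no source used here states their confidence level. They come from 1 array against 1 array and hold no spread between animals. None of the 10 genes carried the authors' own comparison mark, which no probe set under 2-fold has and which 1.06% of the genes above the floor carried.

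**Figure D3:**
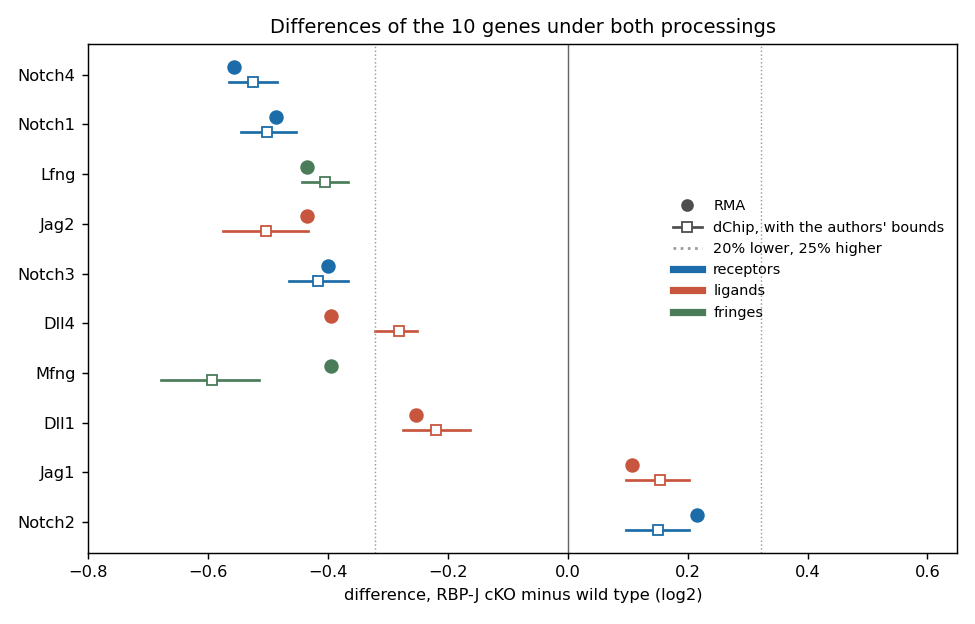
Difference of each gene, cKO minus wild type in log2 units, from RMA (filled circles) and from dChip (open squares, lines for the authors' bounds), with dotted lines at 20% lower and 25% higher. Both symbols lie left of 0 for 8 genes and right of it for Jag1 and Notch2, and they lie furthest apart for Mfng.

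Markers of the cell types that are known to express these genes differed between the pools as well. Fewer cells of a type and less RNA per cell cannot be told apart in pooled tissue RNA. For all marker counts, 46% of all genes above the floor were lower in the cKO pool and 53.9% higher. Of 19 endothelial markers above the floor 17 were lower in the cKO pool, with a median difference of -0.56. Their summed dChip intensity was 38664 in cKO and 52529 in wild type. Egfl7, a secreted protein gene of endothelium, differed by -0.76, the VEGF receptor gene Kdr and the endocytic gene Ehd3 by -0.72 each, and the guidance receptor gene Robo4 by -0.71. Cldn5 and Vwf, the 2 markers that were higher, differed by 0.04 and 0.15.

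Set beside these markers, all 10 genes of the set lay above the endothelial median, narrowly so for Notch4. Most genes did, since 98.1% of all genes above the floor had a higher difference than Notch4. Notch2 lay above every one of the markers. Notch4 and Notch1 each had 10 of the 19 endothelial markers below them, Jag2 and Lfng 12, and Notch3, Dll4 and Mfng 14. Dll1 had 17 below it, Jag1 18 and Notch2 all 19. With the endothelial median subtracted, Notch4 was at 0.00, Notch1 at 0.07 and Dll4 at 0.17, none of the 10 genes was below 0, and the median of the set was 0.16. On that scale Notch2 stood at 0.78 and Jag1 at 0.67. The part of the endothelial markers in the differences of the set was not tested.

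Other lists gave a mixed setting for Notch3 and Jag1, genes of the vessel wall. Smooth muscle markers had a median of -0.07 with 8 of the 12 above the floor lower in the cKO pool, beside 46% of all genes. The summed dChip intensity of all 15 listed was 17453 in cKO and 18542 in wild type. The largest differences were -0.54 for Pln, which encodes the calcium pump regulator phospholamban, and 0.34 for the actin-binding gene Tagln, with Cald1 at -0.34 and Myl9 at -0.29. Notch3, at -0.40, had 1 of the 12 below it, and Jag1 had 10. All 9 pericyte and mesangial markers were lower, at a median of -0.35, with the lowest values for the transcription factor gene Gata3 at -0.79 and the growth factor gene Ptn at -0.75. Notch3 had 4 of these 9 below it. Of 7 arterial endothelial markers 6 were lower, beside 46% of all genes, with a median of -0.33. Among them were Sox17 at -0.56 and Efnb2 at -0.42, and the 1 that was higher was Cxcr4 at 0.21. The lists overlap, with Sox17 also an endothelial marker, Gja5 also a renin cell marker and Hey1 also a target gene of the pathway.

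Markers of the labelled vessels passed the floor, 19 of 19 endothelial and 12 of 15 smooth muscle. Markers of glomeruli and tubules passed it too, 10 of 10 podocyte and 10 of 10 proximal tubule. Of all 22270 genes 11580 did so, which makes passing the floor a weak sign that a cell type was present. All 10 podocyte markers were lower, beside 46% of all genes, at a median of -0.42, and the slit diaphragm gene Nphs1 differed by -0.63. The 5 renin cell markers above the floor were all lower, with a median of -0.49 and Ren1 at -0.58. A Ren1d allele of the cKO animals carries cre, and its part in the Ren1 value was not tested. Markers of other cells were mostly higher, beside 53.9% of all genes. These were 9 of 10 for proximal tubule (median 0.22), 6 of 7 for the thick limb and distal tubule (median 0.34), 8 of 9 for collecting duct (median 0.70) and 12 of 12 for macrophages (median 1.16). With the loess trend subtracted, the proximal tubule median was 0.11 with 3 of 10 lower, and that of the thick limb and distal tubule was 0.21 with 2 of 7 lower. Xist, the RNA of the inactive X chromosome, read 5.41 in the all-male cKO pool and 11.39 in the wild type pool, and the 4 Y-linked genes listed were higher in cKO by 0.82 to 1.16. The part of these cell types and of sex in the Notch values was not tested.

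**Figure D4:**
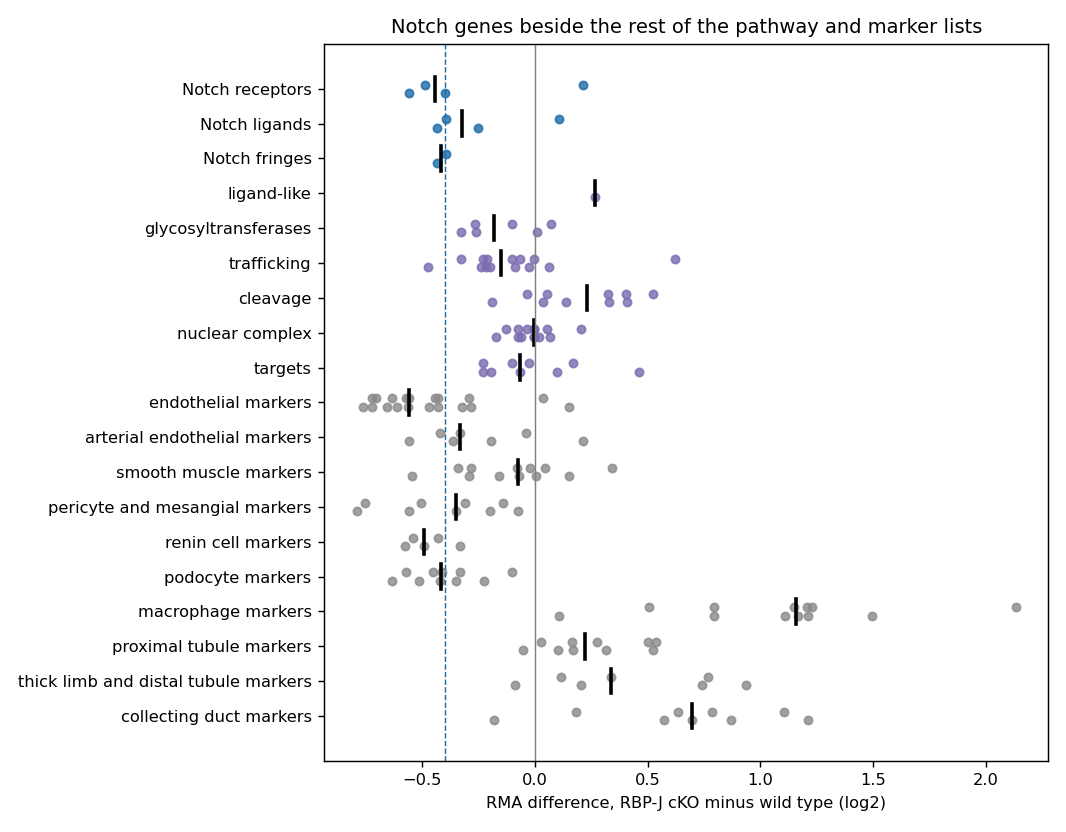
RMA difference, cKO minus wild type in log2 units, of each gene above the floor in the Notch set (blue), in the other pathway lists (purple) and in the marker lists (grey), with a black bar at each list's median and a dashed line at the median of the set, -0.40. Podocyte, renin cell and pericyte markers lie left of 0, as do 17 of 19 endothelial markers and 8 of the 10 genes of the set, and 8 of 10 cleavage genes lie right of it.

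The rest of the Notch pathway was divided between lower and higher values. Of 64 other pathway genes 54 were above the floor. Of these 34 were lower in the cKO pool and 20 higher, beside 46% and 53.9% of all genes, at a median of -0.03. At least 20% lower were 3 of them, beside 7.57% of all genes, and at least 25% higher were 7, beside 14.1%. Of 14 trafficking genes 12 were lower, beside 46% of all genes, with a median of -0.15, and 2 were at least 20% lower, beside 7.57%. Named from this list are Epn2, an endocytic adaptor gene, at -0.47, the Notch inhibitor gene Numb at -0.33 and Dtx3 at -0.24, with the Deltex gene Dtx4 at 0.62. Of 6 glycosyltransferase genes 4 were lower, beside 46% of all genes, and 1 was at least 20% lower. Their median was -0.18, with the lowest differences for Eogt at -0.33, Xxylt1 at -0.27 and Pofut1, which adds the fucose that fringes extend, at -0.26, with Gxylt1 at -0.10.

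Of 10 genes that cleave the receptor 8 were higher in the cKO pool, beside 53.9% of all genes, with a median of 0.23, and 5 were at least 25% higher, beside 14.1%. The gamma-secretase subunit gene Psenen read 12.03 on the cKO array and 11.63 on the wild type array, a difference of 0.41. Aph1c and Aph1b, near-identical subunit genes whose probes may read each other's transcripts, differed by 0.53 and 0.40. Dlk1, a Delta-like gene outside the classical ligands, differed by 0.27 and was the 1 ligand-like gene of 6 above the floor.

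The nuclear partners of the receptors were close to equal, with a median of 0.00 over 14 genes and 10 of them lower, beside 46% of all genes. Rbpj, the gene that the cKO animals lack in the renin lineage, read 9.02 on the cKO array and 9.0 on the wild type array. A second, dimmer Rbpj probe set read 5.81 on the cKO array and 5.93 on the wild type array. Recombination is limited by design to the renin lineage, and no source used here says whether either probe set reads the exons that cre removes, so the genotype labels cannot be checked from Rbpj. The coactivator gene Kat2b differed by 0.20, Maml3 by -0.17, Ctbp2 by -0.13 and Ep300 by -0.07.

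Target genes of the pathway had a median of -0.06, with 6 of 9 lower in the cKO pool, beside 46% of all genes. With dChip the median was 0.02, with 4 of 9 lower. Hes1 differed by -0.23, the feedback inhibitor gene Nrarp by -0.23 and Hey1 by -0.19, while Myc differed by 0.46. Heyl and Hey2 differed by -0.10 and -0.03, and both turned to values just above 0 with dChip, at 0.02 and 0.03. Of these 9 genes 0 were at least 20% lower, beside 7.57% of all genes, and 1, Myc, was at least 25% higher, beside 14.1%.

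The promoters printed at the start were compared over the set as a description of sequence. RefSeq windows of 300 bases were at hand for 9 of the 10 genes, 10 windows in all, with 2 for Dll1. The RBP-J core TGGGAA, or TTCCCA on the other strand, was in 1 of these windows, that of Lfng, beside 25.6% of all 32851 promoter windows. Lfng holds it in both orientations, and the copy on the gene's strand is part of CGTGGGAA, whose first base lies 110 bases before the start and which 0.734% of all windows hold. CGTGGGAA contains TGGGAA, so these are the same letters counted under both names. Lfng, with that motif, differed by -0.44. Only 1 window held the motif and Mfng had no window, so the part of the motif in the differences was not tested.

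The AP-1 motif TGACTCA, or TGAGTCA on the other strand, was in 1 window, that of Notch4, and its first base lies 4 bases before the start. Of all windows 5.2% hold it. This motif was picked after the sequences had been read, so its presence in a printed window was known beforehand. The share of all windows is therefore no test of it. The Notch4 window was the poorest of the set in CpG dinucleotides, with 5, beside a median of 7 over all windows, whereas that of Jag2 held 63 and that of Notch2 held 41. CpG content was not compared with the differences over the set, and its part in them was not tested. A match of letters is no evidence of binding, and its absence says only that the letters are not in this window.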

How the data were processed

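Per the submitters' processing notes, RMA, R 2.15.0 and limma 3.12.1 were used, with no role given for each; the deposited log2 values are taken as the RMA output. The labels' protocols describe biotinylated cDNA made from 500 ng of total RNA with the Ambion WT Expression Kit for Affymetrix whole transcript arrays. Per the file headers, the authors computed the linear intensity values, the signed fold score, cKO over wild type, and its bounds with dChip. No source used here states the genome build or the version of the annotation.

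Probe sets (34760 in both tables) were named from the dChip table and updated with a RefSeq table of GRCm38.p6, and the brightest probe set of a gene was used. Levels of different probe sets are not compared. Genes were kept where the brighter array lay at or above the median of named probe sets (the floor). The code that counts genes past a fold was tested on simulated differences. Python 3.11.15 was used with NumPy 2.4.6, pandas 2.3.3, statsmodels 0.14.6 and matplotlib 3.10.9. With 1 array per group no test was made, and precision is limited by that number.

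The members and all lists were chosen with earlier results of these data known. The rule for named genes was the 10 members, Rbpj, Ren1, Hes1, Hey1, Hey2, Heyl and Xist, and from each list up to 4 genes above the floor with the largest absolute difference, or all of them in lists with up to 5. Of the marker lists only some of these genes are printed, and some members of other lists are not reported here. Rfng, Cldn5, Vwf, Cxcr4 and, as an arterial and renin cell marker in more than 1 list, Gja5 were named after their values were seen. A correlation over 2 arrays is 1 or -1 for any pair of genes, so no likeness of patterns is given.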

Additional observations from a re-analysis of the deposited data

How the results depend on the processing

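Alternatives were the dChip values, centring on the median, on a loess trend and on the endothelial or smooth muscle median, averaging the probe sets of a gene, no floor, and a floor at the 75th percentile. The limit for a move was 0.10 on the log2 scale, the SD across genes between RMA and dChip differences. Of 273 alternative values 241 stayed within it or within 1.5 times, 24 moved further and 8 reversed. Part of those that stayed could not move. Each of the 10 genes has 1 probe set, so averaging returned the same value, and a floor does not change a gene's difference. Centring on the median of all genes (0.02) or of the smooth muscle markers (-0.07) shifts every difference by less than the limit. A change of sign was counted as a reversal only for values at least 20% lower or 25% higher to begin with, which leaves out the target gene median (0.02 with dChip, -0.06 with RMA) and Dll1 (0.31 centred on the endothelial median, -0.25 uncentred).

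All 8 reversals came with centring on the endothelial median, which subtracts -0.56 by construction: the median of the set became 0.16, Notch1 0.074, Notch3 0.16, Notch4 0.004, Jag2 0.13, Dll4 0.17, Lfng 0.13 and Mfng 0.17. On that scale 0 of the 10 genes were lower, and 0 were at least 20% lower, beside 0.311% of all genes. Of the 10 genes 2, Notch2 and Jag1, were at least 25% and also at least 1.5-fold higher. The centring raises all genes by the same amount, so this count does not set Notch2 and Jag1 apart from other genes. The share of all genes at least 25% or 1.5-fold higher on that scale was not computed. With the stricter floor 5 genes were lower, since fewer members are tested. Genes at least 1.5-fold lower numbered 1 with dChip (Mfng) and 1 with the loess trend (Notch4 at -0.59), against 0. Centred on the smooth muscle median, 5 genes were at least 20% lower, against 7. The causes of the dChip and loess changes were not tested.

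No paired analysis was possible because each group has 1 array, which also means that no array was left out.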
